A study of Chlorella variabilis with 6 samples.

Results

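The loci described here belong to the unicellular green alga Chlorella variabilis NC64A and number 4: CHLNCDRAFT_27284, named Protein SDA1, the neighbouring loci CHLNCDRAFT_133426 and CHLNCDRAFT_133427, both named Midasin, and CHLNCDRAFT_56178, named Obg-like ATPase 1. They are 4 of the 9625 genes in the count tables, and they were chosen by their higher counts in LOG OX1 than in WT in these same libraries. The comparison of LOG OX1 with WT is therefore a description for the 4 loci, given without a test. The names come from the study's table of differentially expressed genes, in which proteins were named by homology to algal proteins. That table places SDA1 and both Midasin loci under ribosome biogenesis, whereas Obg-like ATPase 1 is placed under chromosome and associated proteins.

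LOG OX1 is 1 transformed line that overexpresses CvarLOG1, a cytokinin-activating enzyme, and carries hygromycin resistance, and WT is the untransformed NC64A strain. Both were grown in a light and dark cycle and harvested at 14 dpi (days post inoculation), 1 h before the dark phase, with 3 biological replicates each. Total gene counts were between 10180885 and 12444029 in LOG OX1 and between 10743741 and 12546100 in WT. The overexpressed gene itself, CHLNCDRAFT_28106, had between 410.0 and 464 normalized counts in LOG OX1 and between 227 and 266 in WT. This locus was found by its name among genes called higher in LOG OX1, so its values are no independent check of the labels. Since only 1 line was sequenced, the effect of the transgene and that of the line cannot be told apart, and the spread given below is between replicate cultures of that line and of WT.

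Ribosomes are assembled in the nucleolus, where precursor ribosomal RNA is cut, modified and folded together with ribosomal proteins, and the precursor particles then pass through the nucleoplasm to the cytoplasm. Many assembly factors take part and leave the particle one after another. In yeast, Sda1 is a nuclear factor needed for maturation and export of the precursor of the large subunit. Midasin, the yeast Mdn1 or Rea1, is a very large dynein-related AAA ATPase that pulls assembly factors off this precursor. Obg-like ATPase 1 belongs to the Obg family of GTPases but uses ATP, and its bacterial counterpart YchF binds ribosomes, so its established link is with the ribosome and translation rather than with an assembly step.

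All 4 loci had higher counts in LOG OX1, by 2.18-fold to 4.85-fold. SDA1 differed most, and the other 3 loci lay close together. Each of the 4 met the call used here for higher expression, a fold change of 1.5 or more at an adjusted p-value up to 0.05 in edgeR's quasi-likelihood test across all genes, as did 14.0% of the 9101 genes tested, and each also reached 2-fold, as did 6.37%. For all 4 loci every LOG OX1 library was above every WT library, which held for 36.9% of the genes tested. Since the loci were chosen for this difference, nothing is read from these counts. In bulk cultures, more cells that transcribe a gene and more transcript per cell cannot be told apart.

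SDA1, CHLNCDRAFT_27284, had 697.9, 620.0 and 666.1 normalized counts in LOG OX1 replicates 1 to 3, against 130.4, 146.6 and 131.0 in WT replicates 1 to 3. Here a normalized count is the read count of a gene after every library was brought to the average TMM-corrected library size. The lowest LOG OX1 library was 4.23 times the highest WT library. The means were 661 ± 39.2 in LOG OX1 and 136 ± 9.19 in WT (SD, n = 3 each), a log2 fold change of 2.28 (standard error 0.083). The coefficient of variation was 5.92% in LOG OX1 and 6.76% in WT. Counting error alone gives between 3.85% and 4.11% for the LOG OX1 libraries and between 8.06% and 8.94% for the WT libraries, so the WT spread was no larger than counting error at 125 to 154 reads per library. Among the 9101 genes tested, the increase of SDA1 ranked 122nd.

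**Figure D1:**
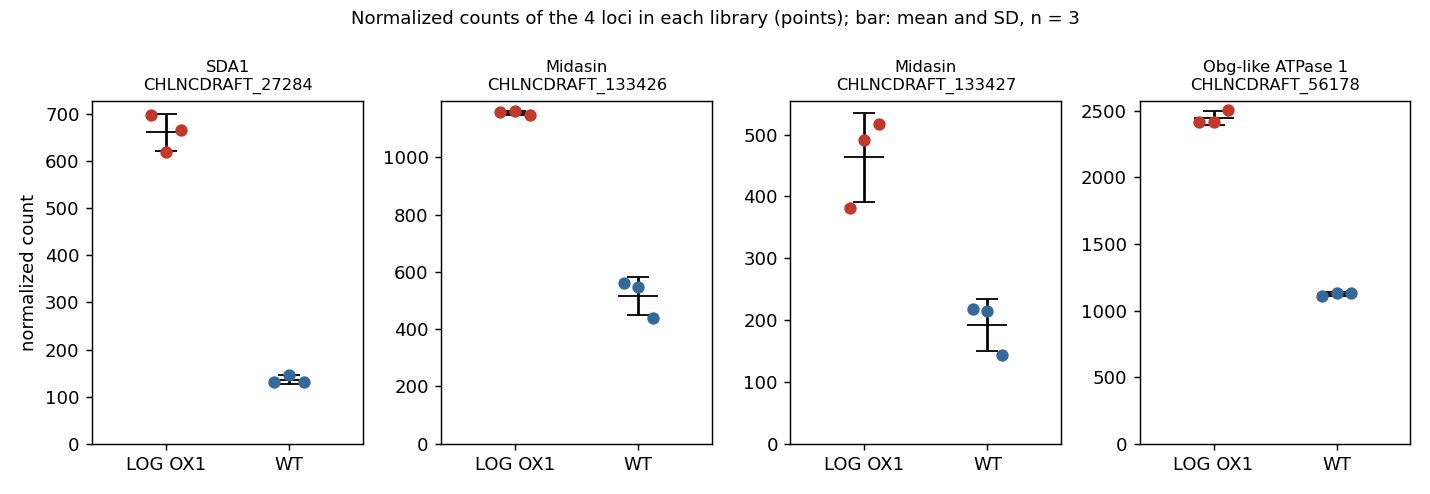
Normalized counts (vertical axes, from 0, a scale for each panel) of SDA1, the 2 Midasin loci and Obg-like ATPase 1 in the LOG OX1 and WT libraries, with 1 point per library and bars for the mean and SD of 3 libraries. In every panel the 3 LOG OX1 libraries lie above the 3 WT libraries, with the widest gap for SDA1, and the points of CHLNCDRAFT_133427 are the most scattered.

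The first Midasin locus, CHLNCDRAFT_133426, had 1157.3, 1160.8 and 1147.7 normalized counts in LOG OX1 and 560.2, 547.4 and 439.9 in WT. The LOG OX1 libraries were nearly identical, while WT replicate 3 stood below the other WT libraries. The means were 1155 ± 6.79 in LOG OX1 and 516 ± 66.1 in WT (SD, n = 3 each), and the log2 fold change was 1.17 (standard error 0.069), a 2.25-fold difference. The coefficient of variation was 0.588% in LOG OX1, below the counting error of 2.82% to 3.13%, and 12.8% in WT, against a counting error of 4.17% to 4.53%.

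The second Midasin locus, CHLNCDRAFT_133427, had 381.4, 491.0 and 517.6 normalized counts in LOG OX1 and 218.0, 214.2 and 143.6 in WT. LOG OX1 replicate 1 and WT replicate 3 were the low libraries of their groups, and the groups did not overlap. The means were 463 ± 72.2 in LOG OX1 and 192 ± 41.9 in WT (SD, n = 3 each), and the fold change was 2.43, or 1.28 on the log2 scale (standard error 0.14). This was the most variable of the 4 loci. Its biological coefficient of variation, edgeR's estimate of the spread between replicates beyond counting error, was 0.103, higher than that of 98.3% of the genes tested, whose median was 0.046. The log2 difference over the 9 pairs of a LOG OX1 with a WT library ran between 0.81 and 1.85.

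Obg-like ATPase 1, CHLNCDRAFT_56178, had 2413.5, 2418.3 and 2508.0 normalized counts in LOG OX1 and 1109.0, 1133.9 and 1130.1 in WT. It was the least variable of the 4 loci, with a coefficient of variation of 2.18% in LOG OX1 and 1.19% in WT. The means were 2447 ± 53.2 in LOG OX1 and 1124 ± 13.4 in WT (SD, n = 3 each), and the log2 fold change was 1.12 (standard error 0.041), which is 2.18-fold. The log2 difference stayed between 1.09 and 1.18 over the 9 pairs of libraries. Its biological coefficient of variation, 0.0366, was higher than that of 13.2% of the genes tested.

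SDA1 stood apart from the other 3 loci in the size of its difference. Its smallest log2 difference over the 9 library pairs was 2.08, above the largest of CHLNCDRAFT_133427 (1.85), of CHLNCDRAFT_133426 (1.40) and of Obg-like ATPase 1 (1.18). The ranges of the 2 Midasin loci and of Obg-like ATPase 1 overlapped, and the differences between these 3 loci were not larger than that spread. In rank among the genes tested, the increases of CHLNCDRAFT_133427, CHLNCDRAFT_133426 and Obg-like ATPase 1 were 383rd, 459th and 477th.

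**Figure D2:**
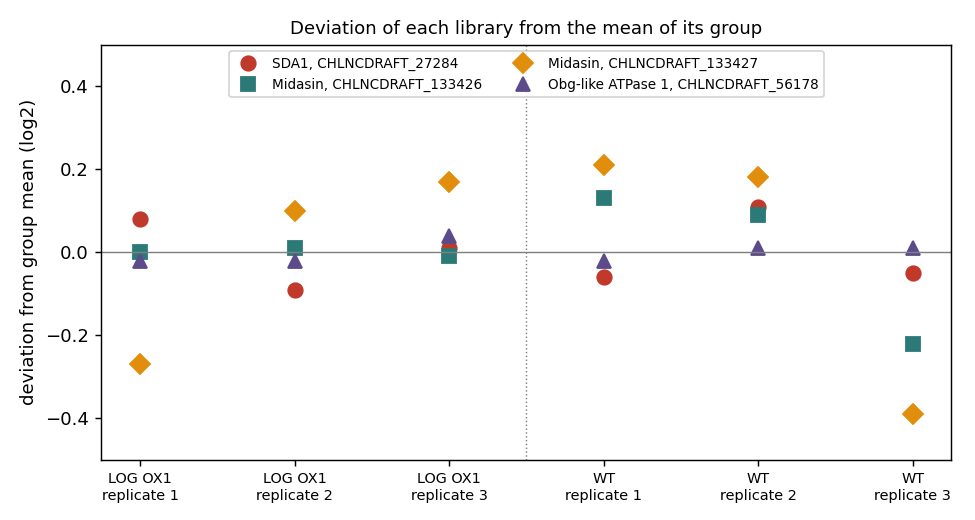
Deviation of each library from the mean of its own group (vertical axis, log2 normalized count) for the 4 loci, by library (horizontal axis). CHLNCDRAFT_133427 deviates by -0.27 in LOG OX1 replicate 1 and by -0.39 in WT replicate 3, whereas Obg-like ATPase 1 stays between -0.02 and 0.04.

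The spread within the groups was not shared by the 4 loci. In WT replicate 3, the library with the largest total count, the Midasin loci deviated from the WT mean by -0.22 and -0.39 on the log2 scale, SDA1 by -0.05 and Obg-like ATPase 1 by 0.01. WT replicates 1 and 3 were also the pair of replicates that differed most over all genes, at 7.33 times the variance that counting noise alone would give, where the other replicate pairs had 2.42 to 4.29 times. Without WT replicate 3, the log2 fold change was 1.06 for CHLNCDRAFT_133426 and 1.10 for CHLNCDRAFT_133427. In LOG OX1 replicate 1, CHLNCDRAFT_133427 deviated by -0.27 while CHLNCDRAFT_133426 was at the mean of its group.

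The 2 Midasin loci follow each other directly in the reference annotation, and the study's table gives them the same best-matching protein of the brown alga Ectocarpus siliculosus. Yeast has a single Midasin gene. Whether the 2 loci are pieces of 1 gene or separate copies was not tested, because no sequence of them was used here, and if they share near-identical stretches, reads could have been split between them. Their relative counts were compared library by library. CHLNCDRAFT_133427 held 24.8%, 29.7% and 31.1% of the counts of the pair in LOG OX1 replicates 1 to 3. In WT replicates 1 to 3 it held 28.0%, 28.1% and 24.6%. The share averaged 28.5 ± 3.31% in LOG OX1 and 26.9 ± 2.00% in WT (SD, n = 3 each), so the groups overlapped and both loci were higher in LOG OX1 by about the same factor. The log2 ratio of CHLNCDRAFT_133426 to CHLNCDRAFT_133427 was 1.33 ± 0.24 in LOG OX1 and 1.44 ± 0.15 in WT, a difference of -0.11.

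**Figure D3:**
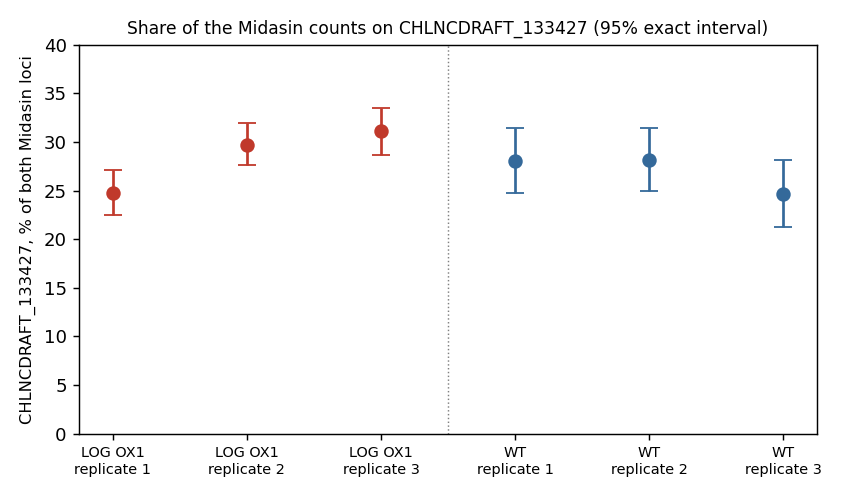
Share of the counts of both Midasin loci that fell on CHLNCDRAFT_133427 (vertical axis, percent) in each library, with exact (Clopper-Pearson) 95% binomial intervals. The LOG OX1 libraries lie between 24.8% and 31.1% and the WT libraries between 24.6% and 28.1%, so the groups overlap.

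Within LOG OX1 the share varied beyond counting error. The exact 95% binomial interval (Clopper-Pearson) was 22.5% to 27.1% in replicate 1, below that of replicate 2, 27.6% to 31.9%, and that of replicate 3, 28.7% to 33.5%. The WT intervals all overlapped, with 24.8% to 31.4%, 25.0% to 31.4% and 21.3% to 28.1% in replicates 1 to 3. These intervals cover counting error only. Counted together, the 2 loci had 1619 ± 69.5 normalized counts in LOG OX1 and 708 ± 108 in WT (SD, n = 3 each), a 2.29-fold difference.

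Ribosome genes were taken from the pathway column of the study's table, and this list includes SDA1 and both Midasin loci. The table lists only genes that the study called different between LOG OX1 and WT. The numbers called, the number at 2-fold and the median of this list are therefore no independent evidence of its direction or size. Of the 21 genes assigned to ribosome biogenesis, 20 were called higher and 1 lower in LOG OX1, and 11 of the 20 reached 2-fold. The shares over all genes tested were 14.0% called higher and 6.37% called higher at 2-fold or more. Of the 1274 genes called higher, 580 reached 2-fold. The median log2 fold change of the 21 genes, SDA1 and both Midasin loci among them, was 1.04, beside 0.00103 over all genes tested. SDA1 had the highest value of the 21, CHLNCDRAFT_133427 was the sixth and CHLNCDRAFT_133426 the eighth.

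The list names 2 other factors of the large subunit, the homologs of WDR12 and NIP7. The homolog of WDR12, CHLNCDRAFT_141384, whose yeast counterpart Ytm1 is removed from the precursor particle by Midasin, had 440.0 ± 20.4 normalized counts in LOG OX1 and 240.0 ± 24.7 in WT (SD, n = 3 each), a log2 fold change of 0.87. The homolog of NIP7, CHLNCDRAFT_139408, needed in yeast for processing of large subunit RNA, had a log2 fold change of 0.90. The differences of these genes from the Midasin loci were not tested.

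RNA helicases remodel RNA in the precursor particles, and 5 genes of the list are named as such. The log2 fold changes of the 3 DEAD box helicases were 1.35 for CHLNCDRAFT_135424, 1.32 for CHLNCDRAFT_25981 and 0.74 for CHLNCDRAFT_23258. The other 2 helicases, CHLNCDRAFT_26393 and CHLNCDRAFT_28229, had 1.09 and 1.06. A chaperone of the list, heat shock protein 70 (CHLNCDRAFT_19454), which is assigned to many other pathways too, had 0.73. The 1 gene lower in LOG OX1 was CHLNCDRAFT_137429, named GTPase HflX, a GTPase that in bacteria binds the large subunit, with 554 ± 32.6 normalized counts in LOG OX1 and 1019 ± 44.8 in WT (SD, n = 3 each) and a log2 fold change of -0.88.

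**Figure D4:**
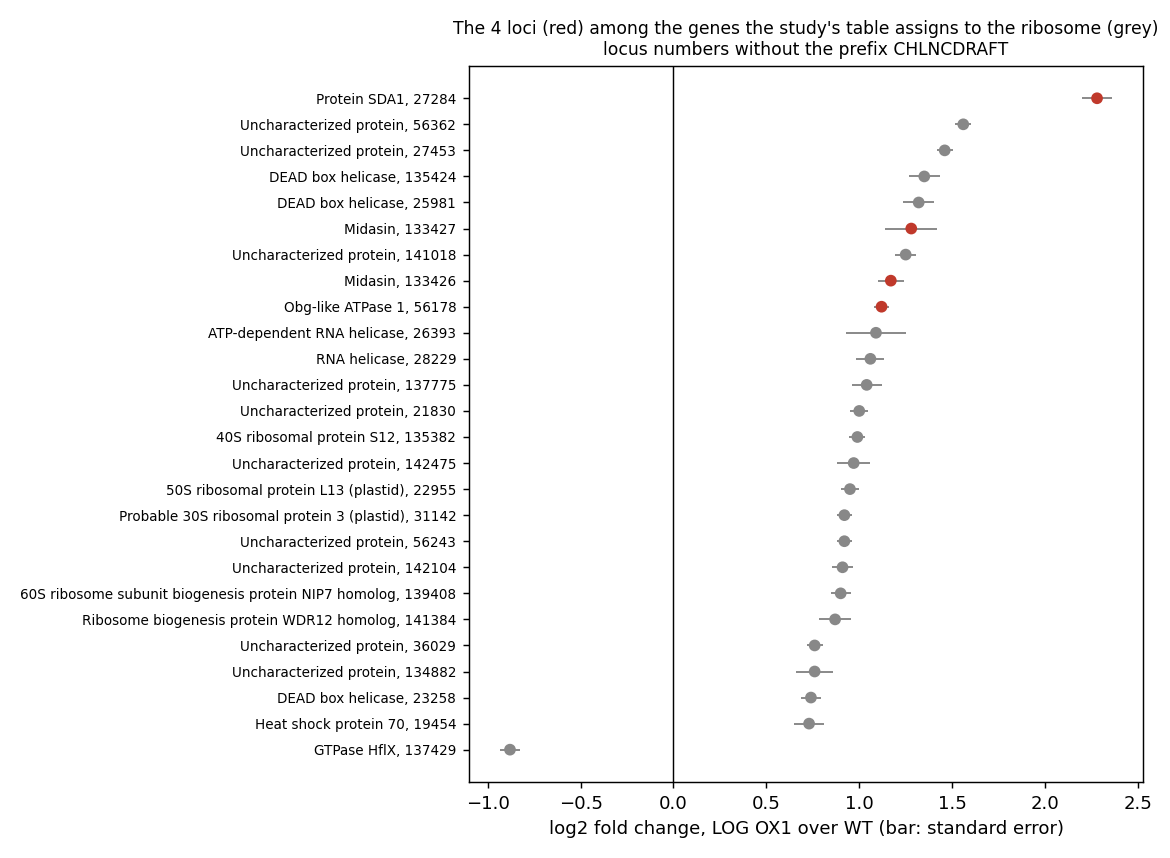
Log2 fold change of LOG OX1 over WT (horizontal axis, bars for the standard error) for the 4 loci (red) and the other genes that the study's table assigns to ribosome biogenesis or the ribosome (grey). SDA1 has the highest value, 2.28, and HflX, at -0.88, is the only gene below 0.

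The ribosomal proteins listed in the study's table, structural parts of the ribosome, had smaller fold changes than the 4 loci. Of the genes of the table with the ontology term for a structural constituent of the ribosome, 8 of 8 were called higher in LOG OX1. None of them reached 2-fold, and their log2 fold changes lay between 0.88 and 0.99. Over all genes tested, 14.0% were called higher and 6.37% were called at 2-fold or more. Of the 8, 5 are named as proteins of the chloroplast ribosome, for example L13 (CHLNCDRAFT_22955) with 0.95, and CHLNCDRAFT_135382 is named as S12 of the cytosolic small subunit and had 0.99. These 8 genes too were listed because they differ in these libraries, so ribosomal proteins with smaller differences are not seen. The 4 loci were chosen for being higher, so setting them beside the 8 genes is a description only. RACK1, a protein of the small subunit and the only ribosome-bound protein recognised among the 34 genes that carry a symbol in the count tables, was picked here by its symbol, with its values known. It had 24530 ± 173 normalized counts in LOG OX1 and 21809 ± 906 in WT (SD, n = 3 each), a log2 fold change of 0.17 (adjusted p = 0.00057 by edgeR's quasi-likelihood test), and was not called, being under the 1.5-fold threshold.

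The annotated genes beside the 4 loci were not chosen by their values and could be tested. Of the 12 genes that lie within 2 positions of a locus in the order of the annotation, 2 were called higher and 1 lower in LOG OX1, beside 28.6% called in either direction over all genes tested, and their median log2 fold change was 0.15. On either side of SDA1, the adjacent genes were not called, with log2 fold changes of 0.22 for CHLNCDRAFT_37079 (adjusted p = 0.00856 by edgeR) and -0.13 for CHLNCDRAFT_139476 (adjusted p = 0.097). CHLNCDRAFT_27264, at 2 positions from SDA1, rose in LOG OX1 by 0.68 on the log2 scale (adjusted p = 2.21e-06).

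The genes that enclose the Midasin pair were both under the fold threshold. CHLNCDRAFT_133425 had a log2 fold change of -0.38 (adjusted p = 0.00146 by edgeR) and CHLNCDRAFT_49595 had 0.39 (adjusted p = 6.64e-05 by edgeR). Beside Obg-like ATPase 1, CHLNCDRAFT_134472 was lower in LOG OX1, with 120.0 ± 5.21 normalized counts against 287 ± 22.8 in WT (SD, n = 3 each), and it was called at a log2 fold change of -1.27 (adjusted p = 4.89e-09 by edgeR). On the other side, the adjacent CHLNCDRAFT_134469 had 0.49 (adjusted p = 1.70e-05 by edgeR) and was under the fold threshold. CHLNCDRAFT_134468, at 2 positions on that side, was called higher at 0.81 (adjusted p = 4.49e-09 by edgeR). Of the neighbours, only CHLNCDRAFT_134472 and CHLNCDRAFT_134468 are in the study's table, which gives no protein name for them. The others are not listed there, so their names were not available.

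**Figure D5:**
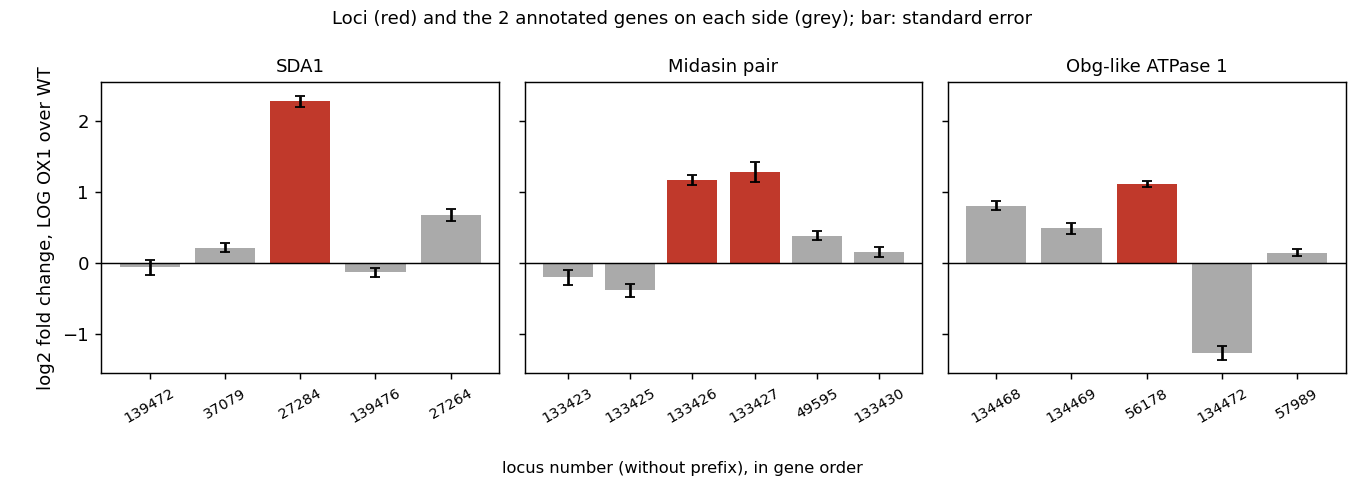
Log2 fold change of LOG OX1 over WT (vertical axis, bars for the standard error) for SDA1, the Midasin pair and Obg-like ATPase 1 (red) and the 2 annotated genes on each side (grey), in gene order. The red bars lie between 1.12 and 2.28, and the grey bars between -1.27 and 0.81.

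The genes with the most similar pattern over the 6 libraries were sought by the Euclidean distance of mean-centred log2 normalized counts among 8925 other genes, all of them with 10 or more counts in each of the libraries. This distance includes the difference between LOG OX1 and WT for which the loci were chosen. Genes with a similar fold change therefore lie close, and nothing further is read from a small distance. Nearest to SDA1 was CHLNCDRAFT_25737, named DNA helicase, at a distance of 0.141, where the median gene was at 2.81. It had 622 ± 5.89 normalized counts in LOG OX1 and 132 ± 6.55 in WT (SD, n = 3 each), a log2 fold change of 2.24. The other close genes of SDA1, CHLNCDRAFT_142071 and CHLNCDRAFT_55359, have no protein name in the table.

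Nearest to CHLNCDRAFT_133426 was CHLNCDRAFT_8704, an uncharacterized protein, at 0.141, followed by CHLNCDRAFT_138586 and CHLNCDRAFT_140852. The nearest genes of CHLNCDRAFT_133427 were farther away, with CHLNCDRAFT_139154 at 0.274, followed by CHLNCDRAFT_55744 and CHLNCDRAFT_140903, which is named as a metal-transporting ATPase. Obg-like ATPase 1 had the closest neighbour in pattern, CHLNCDRAFT_145104 at 0.0593, followed by CHLNCDRAFT_36644 and CHLNCDRAFT_143244. None of the 4 loci was among the 3 nearest genes of another. The 2 Midasin loci were at 0.422 from each other, where CHLNCDRAFT_133427 ranked 228th in distance from CHLNCDRAFT_133426.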

How the data were processed

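RNA of 3 LOG OX1 and 3 WT cultures was sequenced from directional paired-end libraries. The authors trimmed reads with Trim Galore, aligned them to the NC64A genome with HISAT2 and deposited HTSeq counts per gene, unnormalized. Tool versions, strand setting and annotation release are not given in the sources used here, so overlapping and antisense genes have uncertain counts. All 9625 identifiers matched RefSeq's gene table (assembly v 1.0), used for names and gene order only.

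Genes were kept by edgeR's filterByExpr (minimum count 10), scaled by TMM and compared by the quasi-likelihood test with condition as the only term (edgeR 4.0.16, limma 3.58.1, R 4.3.3). Benjamini-Hochberg adjustment ran over the 9101 genes tested. In all, 1274 genes were called higher and 1328 lower, and upper-quartile factors gave 1673 and 1068. The study's own table, made with DESeq at the same stated thresholds, lists 1640 genes, fewer than were called here. The standard error is the log2 fold change over the square root of F. Counting error is the inverse square root of the count. The fits were checked on simulated counts. Python 3.11.15, pandas 2.3.3, scipy 1.17.1 and matplotlib 3.10.9 served for the rest.

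The loci and lists were chosen with earlier results of these data known. The genes named are the 4 loci, named proteins of the study's ribosome list, the 2 genes on either side of each locus and the 3 of most similar pattern. RACK1 was added after its values were seen. Fold changes and p-values in the study's tables were not used. The alternatives were RLE and upper-quartile factors, other filters, DESeq2 1.42.0, the replicate number as a block, other fold thresholds and each library left out. The labels do not say whether replicate numbers pair the cultures, and same-numbered libraries did not deviate together. Lists by protein motif, similarity or product name, promoter motifs and levels per coding length were not analysed here.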

Additional observations from a re-analysis of the deposited data

How the results depend on the processing

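All 4 loci were called higher in LOG OX1 under each of the 12 alternative fits, which called between 1213 and 1673 genes higher. These fits reuse the libraries on which the loci were chosen, so the calls are no independent evidence. With each library left out, the log2 fold change ran from 2.24 to 2.34 for SDA1, from 1.06 to 1.23 for CHLNCDRAFT_133426, from 1.10 to 1.40 for CHLNCDRAFT_133427 and from 1.11 to 1.13 for Obg-like ATPase 1, and the difference in the log2 ratio of the Midasin pair from -0.25 to -0.02. Upper-quartile factors moved the median of all genes by 0.111, and with it SDA1 to 2.39 and Obg-like ATPase 1 to 1.23, by more than 1 SD of their replicates. The number of genes called was 2602, and 6536 with no fold threshold or 1193 with a fold change of at least 2, as these thresholds admit more or fewer genes. Of the 25 genes of the study's ribosome and ribosome biogenesis list, 25 were called, 24 higher and 1 lower, and 11 at a fold change of at least 2. The list holds only genes that the study had called in these libraries, so this number is no independent evidence.

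Same-numbered libraries did not deviate together (Pearson's r across genes of -0.036, -0.00488 and -0.124 for replicates 1, 2 and 3). With the replicate number as a block, 2603 genes and 25 of the list were called, and the log2 fold change of CHLNCDRAFT_133427 was 1.28. The planned lists by product name, DEAD-box motif and similarity, and levels and the Midasin ratio per coding length, were not run. Depth limits SDA1 most, at 125 to 154 counts in WT.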
